A study of Lupinus albus with 12 samples.

Results

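The BZR1 homologs are the genes of white lupin (Lupinus albus) whose deposited protein name reads "Protein BZR1 homolog (Protein BRASSINAZOLE-RESISTANT 1 homolog)". All 33388 genes of the deposited table were searched for BZR1 in the protein name, and 10 genes carried it. The members were chosen by name, but the family and Lalb_Chr05g0212971 in it were selected on the level of Lalb_Chr05g0212971 after 20 min of sucrose against untreated roots, so its values in that contrast are given as a description, without a test. RNA was sequenced from wildtype plants of the cultivar Amiga grown in hydroponic Hoagland solution, to find root transcripts that respond to sucrose as a signal. Controls were untreated and harvested at 0 min, and the other plants had 10 mM sucrose in the solution for 20, 40 or 80 min. There were 3 plants in each of the 4 groups, and each of the 12 libraries came from the root tip sections of 1 plant. No untreated plants were harvested at the later times, so the effect of sucrose and the effects of elapsed time and handling cannot be told apart. The sections were several centimetres long and held many cell types, so fewer cells of a type and less RNA per cell cannot be told apart either.

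Brassinosteroids are growth-promoting steroid hormones of plants. In Arabidopsis, the hormone binds the receptor kinase BRI1 and its co-receptor BAK1, and BSK kinases and a BSU1-type phosphatase pass the signal on to inactivate the GSK3-type kinase BIN2. Active BIN2 phosphorylates the transcription factor BZR1, and 14-3-3 proteins hold the phosphorylated form outside the nucleus. Protein phosphatase 2A removes the phosphates, and BZR1 then enters the nucleus, represses hormone synthesis genes and activates genes of cell growth. In Arabidopsis seedlings, sugar acting through the TOR kinase is known to stabilise the BZR1 protein. Transcript counts do not measure phosphorylation, stability or location of the protein.

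The 10 genes lie on 9 chromosomes, and 10 of 10 carry a brassinosteroid signalling term in the deposited gene ontology column. The names do not separate BZR1 from its close relatives in Arabidopsis, so no member is assigned to a particular Arabidopsis gene. Lalb_Chr25g0285691 and Lalb_Chr25g0285701 are next to each other in the NCBI gene order for CNRS_Lalb_1.0, the only adjacent pair among the members. A gene named as a putative plasmalogen synthase lies within 2 genes of 3 members (Lalb_Chr11g0062391, Lalb_Chr23g0266671 and Lalb_Chr22g0355411), and the whole table holds 5 genes of that name. A homeobox-leucine zipper gene lies within 2 genes of Lalb_Chr05g0212971 and of Lalb_Chr09g0322641, among 22 genes of that name. These shared neighbours were noticed in the annotation and not tested.

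Libraries held between 35050877 reads (20 min replicate 2) and 105299704 reads (80 min replicate 2). Plants of the same group differed in transcripts of the low-oxygen response. The summed level of 12 low-oxygen genes, in CPM (read counts relative to library size, after TMM scaling), was 4042 to 7465 in the controls, 1656 to 30360 at 20 min, 1000 to 2076 at 40 min and 1911 to 3696 at 80 min, and the lowest value at 20 min was replicate 2. Calls over all genes depended on which plants were kept. edgeR's quasi-likelihood test called 7 genes at 20 min against control, and 1014 without 20 min replicate 2. At 80 min against control it called 3 genes, and 462 without 80 min replicate 3. All 4 genes of the root cap and root tip list had reads, with a summed level of 154.6 to 312.8 CPM in the controls and 67.0 to 145.8 CPM in the 9 sucrose plants, each of which lay below every control. All 43 Casparian-strip (endodermis) genes had reads too, with a summed level of 325.5 to 614.2 CPM.

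Levels per length are in FPKM, the authors' fragment counts relative to gene length and library size, which allow genes to be set against each other. In untreated roots the most abundant homolog was Lalb_Chr25g0285701, at 10.3 ± 0.763 FPKM (SD, n = 3), followed by Lalb_Chr05g0212971 at 8.22 ± 0.548. These leading members did not overlap each other. Lalb_Chr11g0062391 (6.81 ± 2.17 FPKM), Lalb_Chr25g0285691 (6.46 ± 0.836), Lalb_Chr20g0109101 (5.77 ± 0.209) and Lalb_Chr01g0016481 (5.05 ± 1.96) came next. From Lalb_Chr05g0212971 on, each of these overlapped the next in the order, so neighbouring ranks from the second down to Lalb_Chr01g0016481 cannot be separated. Lalb_Chr14g0369101 (2.55 ± 1.06 FPKM) and Lalb_Chr23g0266671 (2.33 ± 0.710) overlapped each other and lay above the scarcest members. Lalb_Chr09g0322641 stood at 0.682 ± 0.591 FPKM and Lalb_Chr22g0355411 at 0.0194 ± 0.0332.

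**Figure D1:**
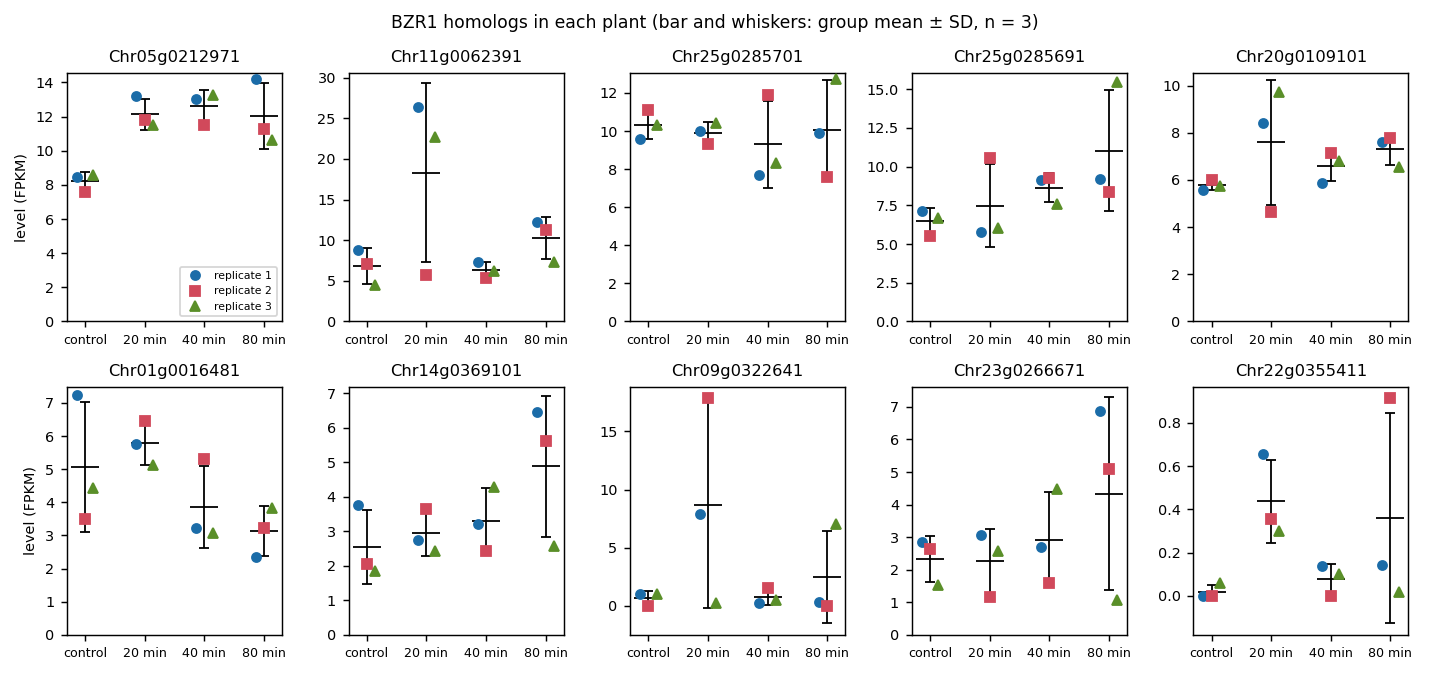
Level of each BZR1 homolog in FPKM (vertical axis) in the 3 plants of each group (horizontal axis: control, 20, 40 and 80 min of sucrose). Symbols are plants, and the bar with whiskers is the group mean ± SD. Lalb_Chr05g0212971 lies higher in every treated plant than in every control, Lalb_Chr11g0062391 is high in 20 min replicates 1 and 3 only, and Lalb_Chr09g0322641 is high in 20 min replicates 1 and 2 and in 80 min replicate 3.

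The edgeR test with Benjamini-Hochberg adjustment over 28980 genes called none of the 10 homologs in any comparison. At 20 min against control 0 of 10 were called at an adjusted p below 0.05, against 0.0242% of all genes tested, 3 of 10 had an unadjusted p below 0.05 against 12.6% of all genes, and DESeq2 called 1 of 10 against 4.44%. The 3 were Lalb_Chr05g0212971, which that contrast had chosen, Lalb_Chr11g0062391 and Lalb_Chr22g0355411, and the DESeq2 call was Lalb_Chr05g0212971 itself. At 40 min against control 0 of 10 were called against 0.0897% of all genes, 1 of 10 had an unadjusted p below 0.05 against 5.99%, and DESeq2 called 0 of 10 against 2.02%. At 80 min against control 0 of 10 were called against 0.0104% of all genes, 3 of 10 had an unadjusted p below 0.05 against 9.91%, and DESeq2 called 0 of 10 against 3.11%. The 1 at 40 min was Lalb_Chr05g0212971, and the 3 at 80 min were Lalb_Chr05g0212971, Lalb_Chr25g0285691 and Lalb_Chr01g0016481. Both comparisons reuse the control plants of the contrast that chose Lalb_Chr05g0212971, so its part in these counts is a description. All 3 comparisons share the control plants, so they are not independent of each other. A count of 0 of 10 is what these background shares give.

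Comparisons between sucrose times do not set levels against the controls, though the spread in the main fit is estimated over all 12 libraries. From 20 to 40 min edgeR called 0 of 10 homologs and 0% of all genes, 2 of 10 had an unadjusted p below 0.05 against 14.2%, and DESeq2 called 1 of 10 against 5.07%. From 40 to 80 min edgeR called 0 of 10 and 0% of all genes, 0 of 10 had an unadjusted p below 0.05 against 4.51%, and DESeq2 called 0 of 10 against 0.87%. From 20 to 80 min edgeR called 0 of 10 and 0% of all genes, 1 of 10 had an unadjusted p below 0.05 against 17.3%, and DESeq2 called 1 of 10 against 7.44%. The F test over the 4 groups in edgeR called 0 of 10 against 0.0725% of all genes, with 3 of 10 at an unadjusted p below 0.05 against 13.4%, and DESeq2's likelihood ratio test called 2 of 10 against 8.37%. The 3 were Lalb_Chr05g0212971, Lalb_Chr11g0062391 and Lalb_Chr01g0016481, and the 2 were Lalb_Chr05g0212971 and Lalb_Chr11g0062391. The control and 20 min plants that chose Lalb_Chr05g0212971 enter these tests, so its part in both counts is a description. Among fits that left out 1 plant, calls over all genes rose most without 20 min replicate 2 or 80 min replicate 3. These 2 plants are singled out by that effect in these same data, so counts without them are a description. Such fits leave 2 plants in a group that lost 1. Without 20 min replicate 2, edgeR called 1 of 10 over the 4 groups against 3.37% of all genes, and 0 of 10 at 40 and 80 min against control, where the shares of all genes were 0.528% and 0.0609%. Without that plant and 80 min replicate 3, edgeR called 2 of 10 at 20 min against control (8.16% of all genes), among them Lalb_Chr05g0212971, which that contrast had chosen, 0 of 10 at 40 min (0.846%) and 0 of 10 at 80 min (5.54%). The same fit called 1 of 10 from 20 to 40 min (10.7%), 0 of 10 from 40 to 80 min (2.27%), 1 of 10 from 20 to 80 min (17.8%) and 1 of 10 over the 4 groups (15.2%).

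The fitted change was above 0 in 10 of 10 homologs at 20 min, against 53.7% of all genes, with a median log2 fold change of 0.40 over the homologs and 0.06 over all genes, values that include Lalb_Chr05g0212971 in the contrast that chose it. At 40 min it was above 0 in 7 of 10, against 57.1% of all genes, with medians of 0.14 and 0.08. At 80 min it was above 0 in 8 of 10, against 57.6%, with medians of 0.58 and 0.12. From 20 to 40 min it was above 0 in 1 of 10, against 48.7%, with medians of -0.37 and -0.02. All these counts and medians include Lalb_Chr05g0212971, and each comparison reuses control or 20 min plants of the contrast that chose it. Some of the 20 min values lay close to 0, and their sign did not hold in every fit. That of Lalb_Chr25g0285701 was 0.03 and turned negative in 6 of the 12 fits that each left out 1 plant, and that of Lalb_Chr23g0266671 was 0.05 and turned negative in 7. That of Lalb_Chr25g0285691 was 0.32 and turned to -0.09 without 20 min replicate 2.

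**Figure D2:**
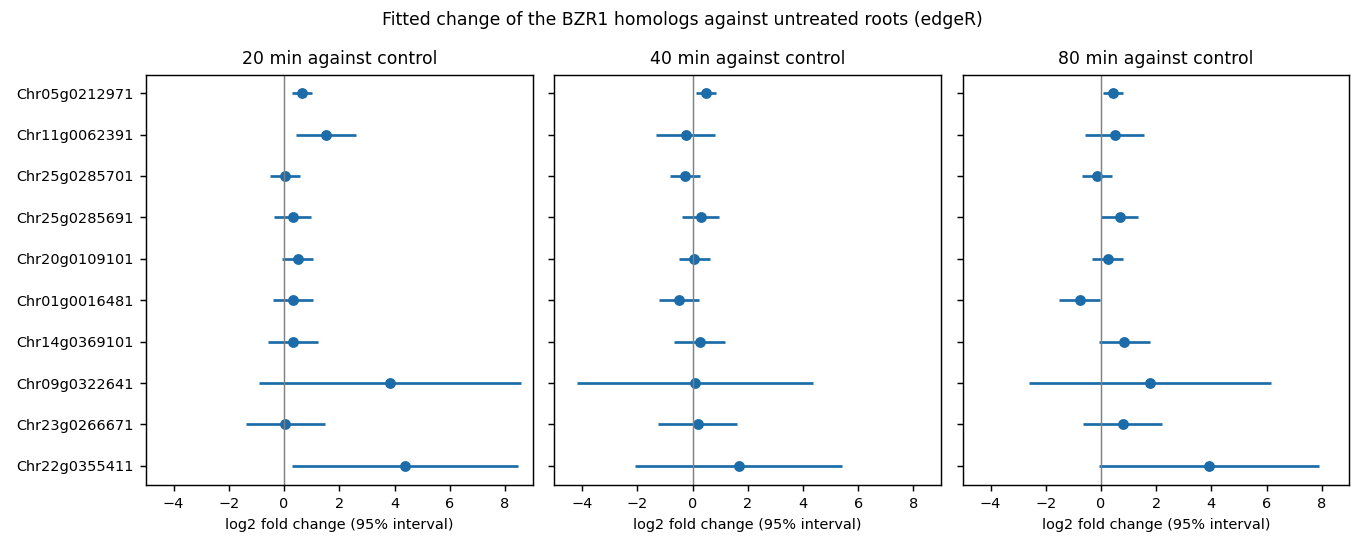
Fitted log2 fold change of each BZR1 homolog (horizontal axis) at 20, 40 and 80 min of sucrose against control, from edgeR over 12 libraries, with 95% intervals unadjusted for the number of genes. The intervals of Lalb_Chr05g0212971 are the narrowest, and those of Lalb_Chr09g0322641 and Lalb_Chr22g0355411 span several log2 units. The 20 min value of Lalb_Chr05g0212971 chose that gene and is shown as a description.

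Lalb_Chr05g0212971 was the homolog with the most reads over all libraries and the one with the lowest fitted dispersion among the 10. Its levels in the controls were 27.3, 26.8 and 27.9 CPM. They were 47.1, 42.7 and 40.2 CPM at 20 min, 39.3, 36.0 and 40.1 CPM at 40 min, and 43.7, 35.7 and 33.0 CPM at 80 min. Every one of the 9 treated plants lay above every control. For each time alone, 10.8%, 6.9% and 8.62% of all genes were higher without overlap at 20, 40 and 80 min. The share higher in all 9 plants at once was not counted, and the gene was chosen on its 20 min and control values. The summed level of the root cap and root tip genes separated the sucrose plants from the controls in the opposite direction. It was 154.6 to 312.8 CPM in the controls and 67.0 to 145.8 CPM in the sucrose plants. This is a sum of 4 genes, whose single levels are not given. For each time alone, 10.8%, 8.35% and 9.05% of all genes were lower without overlap at 20, 40 and 80 min. The part of this sum in the level of Lalb_Chr05g0212971 was not tested. The group mean was 1.59 times the control mean at 20 min, 1.41 times at 40 min and 1.37 times at 80 min. The log2 fold change at 20 min was 0.67 ± 0.16 (SE), the value that chose the gene, and the authors' deposited table gives 0.64. At 40 min the log2 fold change was 0.49 ± 0.16 with an edgeR adjusted p of 0.609, and at 80 min 0.45 ± 0.16 with an edgeR adjusted p of 0.434, so neither passed, and both reuse the control plants of the contrast that chose the gene. The spread behind the test of 80 against 40 min comes from all 12 libraries, so that test is not independent of the choice. Levels at 80 and 40 min come from plants outside that contrast. They differed by a log2 fold change of -0.04, with a 95% interval of -0.40 to 0.32 and an edgeR adjusted p of 1. Its biological coefficient of variation was 0.228, and 2.15% of all genes had a lower dispersion. This spread includes the control and 20 min plants on which the gene was chosen, so its low value is a description.

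The genes most like Lalb_Chr05g0212971 were sought among 18004 genes with a mean of at least 5 CPM, by Pearson's correlation of log2 CPM over the 12 libraries. The closest was a putative SNARE associated Golgi family protein, Lalb_Chr02g0141811, with r = 0.97. A lipoxygenase, an enzyme that oxidises unsaturated fatty acids, followed with r = 0.92 (Lalb_Chr01g0003271). A WD40-like factor (Lalb_Chr20g0109711) and a gene named as a putative terminal organelle assembly protein TopJ (Lalb_Chr20g0108121) both had r = 0.91. A protein-serine/threonine phosphatase (Lalb_Chr13g0298511) had r = 0.90. Only 6 genes reached r = 0.9, none of them another BZR1 homolog, and all these values share the same 12 libraries.

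Lalb_Chr11g0062391 stood at 22.8, 20.2 and 11.8 CPM in the controls and at 75.9, 16.8 and 63.9 CPM at 20 min. It stood at 17.8, 13.4 and 15.0 CPM at 40 min and at 30.2, 28.8 and 18.1 CPM at 80 min. Replicates 1 and 3 at 20 min were the highest of all libraries, while replicate 2 at 20 min lay within the control range. The log2 fold change at 20 min was 1.52 ± 0.49 (SE), with an edgeR adjusted p of 0.278. Between 20 and 40 min it was -1.76 ± 0.49, with an edgeR adjusted p of 0.232 and a DESeq2 adjusted p of 0.0179. Without 20 min replicate 2, which left 2 plants in that group, the log2 fold change at 20 min was 1.87 with an edgeR adjusted p of 0.0224, and that from 20 to 40 min was -2.16 with an edgeR adjusted p of 0.0112. From 20 to 80 min that fit gave -1.45 with an edgeR adjusted p of 0.0477. The plant left out was the low one of its group for this gene, and it was singled out in these same data. Values of that fit are therefore a description and not a test. It called 3.43% of all genes at 20 min against control, 4.91% from 20 to 40 min and 3.3% from 20 to 80 min.

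Alcohol dehydrogenase 1 (Lalb_Chr23g0271341), a fermentation enzyme used here as a low-oxygen marker, moved with Lalb_Chr11g0062391 across the 20 min plants. Its level was 3539, 2758 and 1833 CPM in the controls, 23820, 902 and 15680 CPM at 20 min, 486, 492 and 991 CPM at 40 min and 1601, 810 and 721 CPM at 80 min. The summed level of 110 photosynthesis genes, a list for shoot tissue, was 1958, 570 and 1318 CPM in the same 20 min plants, and 349.4 to 728.4 CPM in all other libraries. Each of the 12 low-oxygen and 110 photosynthesis genes had reads in at least 1 library. The part of these differences in the level of Lalb_Chr11g0062391 was not tested. The 80 min levels of Lalb_Chr11g0062391 did not overlap those at 40 min, as for 5.08% of all genes in that direction, with a log2 fold change of 0.74 ± 0.48 and an edgeR adjusted p of 1.

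**Figure D3:**
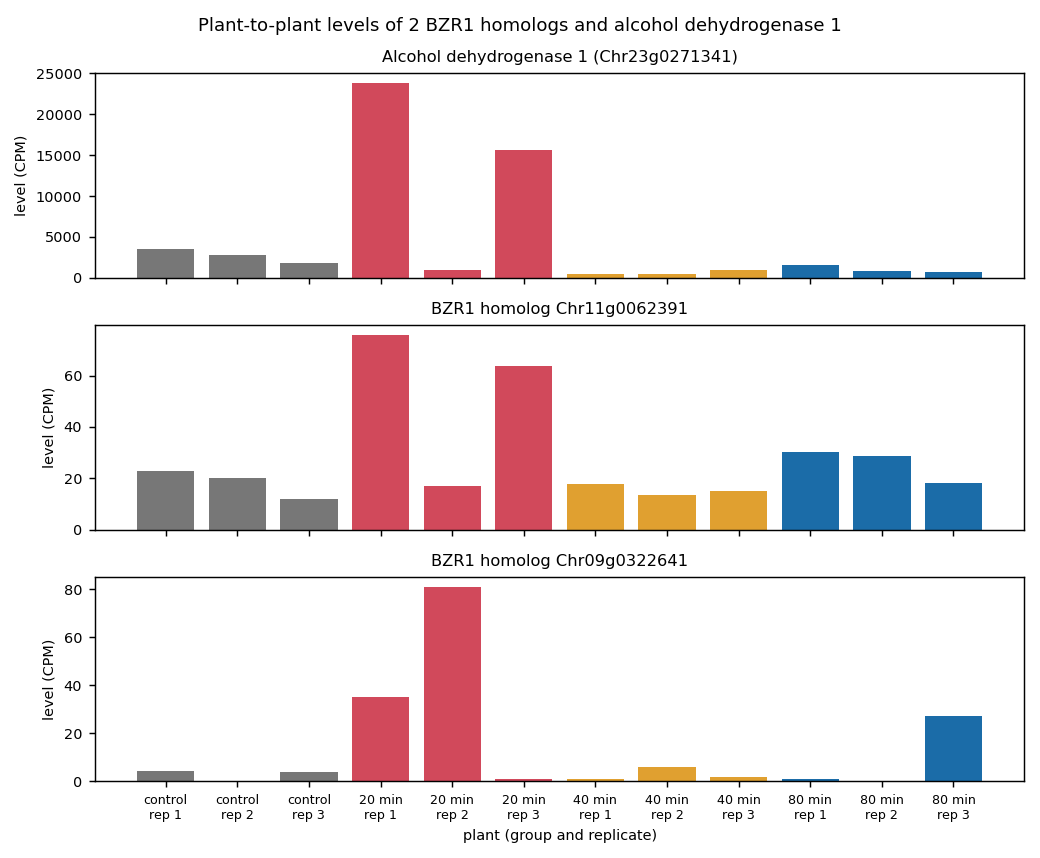
Level in CPM (vertical axes, from 0) of alcohol dehydrogenase 1 and of the BZR1 homologs Lalb_Chr11g0062391 and Lalb_Chr09g0322641 in each of the 12 plants (horizontal axis, 1 bar a plant, coloured by group). Alcohol dehydrogenase 1 and Lalb_Chr11g0062391 are highest in 20 min replicates 1 and 3, while Lalb_Chr09g0322641 is highest in 20 min replicates 1 and 2 and in 80 min replicate 3.

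Lalb_Chr20g0109101 followed a similar course at lower amplitude. Its levels were 16.6, 19.5 and 17.3 CPM in the controls, 27.7, 15.5 and 31.4 CPM at 20 min, 16.3, 20.6 and 18.9 CPM at 40 min and 21.5, 22.6 and 18.7 CPM at 80 min. Here too replicates 1 and 3 at 20 min were the highest and replicate 2 the lowest of all libraries. The log2 fold change at 20 min was 0.49 ± 0.26 (SE), with an edgeR adjusted p of 0.456. It was 0.68 with an edgeR adjusted p of 0.0958 without 20 min replicate 2, a description, since that low plant was singled out in these data. Its log2 CPM correlated with that of Lalb_Chr11g0062391 at r = 0.84 over 12 libraries, the highest value among the 45 pairs of homologs. Over the 45 pairs r was above 0 in 29, with a median of 0.16.

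The levels of the adjacent genes of chromosome 25 were only weakly related. Lalb_Chr25g0285701 stood at 27.4, 34.8 and 29.8 CPM in the controls, 31.7, 30.1 and 32.4 CPM at 20 min, 20.6, 33.0 and 22.3 CPM at 40 min and 27.1, 21.3 and 35.2 CPM at 80 min. All groups overlapped, and the log2 fold change at 20 min was 0.03 with a 95% interval of -0.50 to 0.57. Lalb_Chr25g0285691 stood at 19.6, 16.6 and 18.5 CPM in the controls, 17.7, 32.5 and 18.0 CPM at 20 min, 23.4, 24.6 and 19.4 CPM at 40 min and 24, 22.5 and 40.9 CPM at 80 min. Its 80 min plants lay above the controls without overlap, as 8.62% of all genes did, and its highest values were in 20 min replicate 2 and 80 min replicate 3. The log2 fold change of Lalb_Chr25g0285691 at 80 min was 0.67 ± 0.30 (SE) with an edgeR adjusted p of 0.503, and 0.37 without 80 min replicate 3. The ratio of the FPKM of Lalb_Chr25g0285691 to that of Lalb_Chr25g0285701 was 0.749, 0.499 and 0.648 in the controls. After 20 min it was 0.581, 1.13 and 0.580, after 40 min 1.18, 0.778 and 0.910, and after 80 min 0.926, 1.10 and 1.22. The 40 and 80 min ratios lay above every control, at the closest 0.778 against 0.749, while those of 20 min replicates 1 and 3 lay within the control range. How many other gene pairs separate in this way was not counted, and the split of reads between these adjacent genes is uncertain. The correlation of their log2 CPM was r = 0.11 over 12 libraries.

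Lalb_Chr01g0016481 had its lowest group mean at 80 min. It stood at 25.6, 13.4 and 15.8 CPM in the controls, 22.6, 25.6 and 19.7 CPM at 20 min, 10.7, 18.1 and 10.1 CPM at 40 min and 7.85, 11.1 and 13.0 CPM at 80 min. The 80 min plants lay below the 20 min plants and below the controls without overlap, as 7.85% and 9.05% of all genes did in those comparisons. From 20 to 40 min Lalb_Chr01g0016481, Lalb_Chr05g0212971 and Lalb_Chr22g0355411 were lower without overlap, 3 of 10 homologs against 8.93% of all genes. Lalb_Chr05g0212971 was chosen for its 20 min level, which this comparison reuses, so its place in the count is a description. From 20 to 80 min the log2 fold change was -1.08 ± 0.33 (SE), with an edgeR adjusted p of 0.182 and a DESeq2 adjusted p of 0.0362. Against control at 80 min it was -0.77 ± 0.33, with an edgeR adjusted p of 0.494. The authors' deposited table gives -0.80 with an adjusted p of 0.275 for the last comparison.

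Lalb_Chr14g0369101 and Lalb_Chr23g0266671 were both high in the same pair of 80 min plants. Lalb_Chr14g0369101 stood at 8.545, 5.08 and 4.21 CPM in the controls, 6.91, 9.33 and 5.97 CPM at 20 min, 6.83, 5.34 and 9.13 CPM at 40 min and 13.97, 12.5 and 5.66 CPM at 80 min. Lalb_Chr23g0266671 stood at 7.87, 8.02 and 4.26 CPM in the controls, 9.44, 3.66 and 7.75 CPM at 20 min, 6.97, 4.30 and 11.6 CPM at 40 min and 18.1, 13.85 and 2.83 CPM at 80 min. In both genes 80 min replicates 1 and 2 were the highest of all libraries, and replicate 3 lay within the control range or below it. The log2 fold changes at 80 min were 0.85 ± 0.41 (SE) for Lalb_Chr14g0369101 and 0.79 ± 0.64 for Lalb_Chr23g0266671, with edgeR adjusted p of 0.529 and 0.677. Without 80 min replicate 3 they were 1.21 and 1.27, with edgeR adjusted p of 0.125 and 0.187. That plant was the low one at 80 min in both genes and was singled out in these data, so these values are a description. Their log2 CPM correlated at r = 0.67 over 12 libraries.

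Lalb_Chr09g0322641 varied most between plants of the same group. It had 216, 0 and 256 reads in the controls and 2338, 3057 and 85 reads at 20 min. It had 53, 414 and 144 reads at 40 min and 106, 12 and 1946 reads at 80 min. As CPM, the 20 min plants stood at 35.3, 81.1 and 1.11, a 73.2-fold range, and the 80 min plants at 1.21, 0.114 and 27.2, a 238.5-fold range. The 0 reads of control replicate 2 allow up to 0.0532 CPM, taking 3 reads as the limit of a count of 0. All groups overlapped. The log2 fold change at 20 min was 3.82 with a 95% interval of -0.92 to 8.57, and that at 80 min was 1.78 (95% interval -2.59 to 6.16), which became -2.03 without 80 min replicate 3. Its dispersion was higher than that of 94.3% of all genes. The neighbouring NAD(P)H dehydrogenase gene (Lalb_Chr09g0322631) lay between 15.9 and 25.9 CPM in all 12 libraries. The homeobox-leucine zipper neighbour (Lalb_Chr09g0322621) ranged more widely, from 2.57 to 30.9 CPM, and the uncharacterized Lalb_Chr09g0322661 from 1.41 to 10.9 CPM. Of the 3 libraries highest in Lalb_Chr09g0322641, 1 had much and 2 had little alcohol dehydrogenase 1, and its log2 CPM correlated with that of Lalb_Chr11g0062391 at r = 0.00055.

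Lalb_Chr22g0355411 was nearly silent in untreated roots. It had 0, 1 and 12 reads in the controls, 151, 48 and 78 reads at 20 min, 25, 0 and 23 reads at 40 min and 37, 295 and 4 reads at 80 min. As CPM, the 20 min plants stood at 2.28, 1.27 and 1.02, above the highest control at 0.192, and the 80 min plants at 0.423, 2.81 and 0.0560, which overlap the controls. The limit of a count of 0 was 0.0583 CPM in control replicate 1 and 0.0445 CPM in 40 min replicate 2. The 20 min plants did not overlap the controls, nor did those of Lalb_Chr05g0212971. That makes 2 of 10 homologs, beside the 10.8% of all genes given above, but nothing can be read from this count, since the contrast chose Lalb_Chr05g0212971. The edgeR adjusted p of Lalb_Chr22g0355411 at 20 min was 0.363, with a fitted log2 fold change of 4.38 ± 1.84 (SE) that depends on how a group with almost no reads is handled. It became 7.04 without control replicate 3, the library with 12 reads.

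The summed FPKM of the 10 homologs was 48.2 ± 5.42 (SD, n = 3) in the controls, 75.5 ± 7.27 at 20 min, 54.4 ± 1.72 at 40 min and 65.8 ± 4.25 at 80 min. The sums at 20 min, 71.1 to 83.9, lay above all others, and those at 80 min, 61.1 to 69.2, lay above those at 40 min and in the controls. Different members made up the sum in different plants. At 20 min Lalb_Chr11g0062391 gave 31.5% and 31.9% of it in replicates 1 and 3 and 8.05% in replicate 2, where Lalb_Chr09g0322641 gave 25.0%. Lalb_Chr25g0285701 was the most abundant member in 4 of 12 libraries, Lalb_Chr11g0062391 and Lalb_Chr05g0212971 in 3 each, and Lalb_Chr09g0322641 and Lalb_Chr25g0285691 in 1 each. No test was run on the sum, since it follows from the choice of members.

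**Figure D4:**
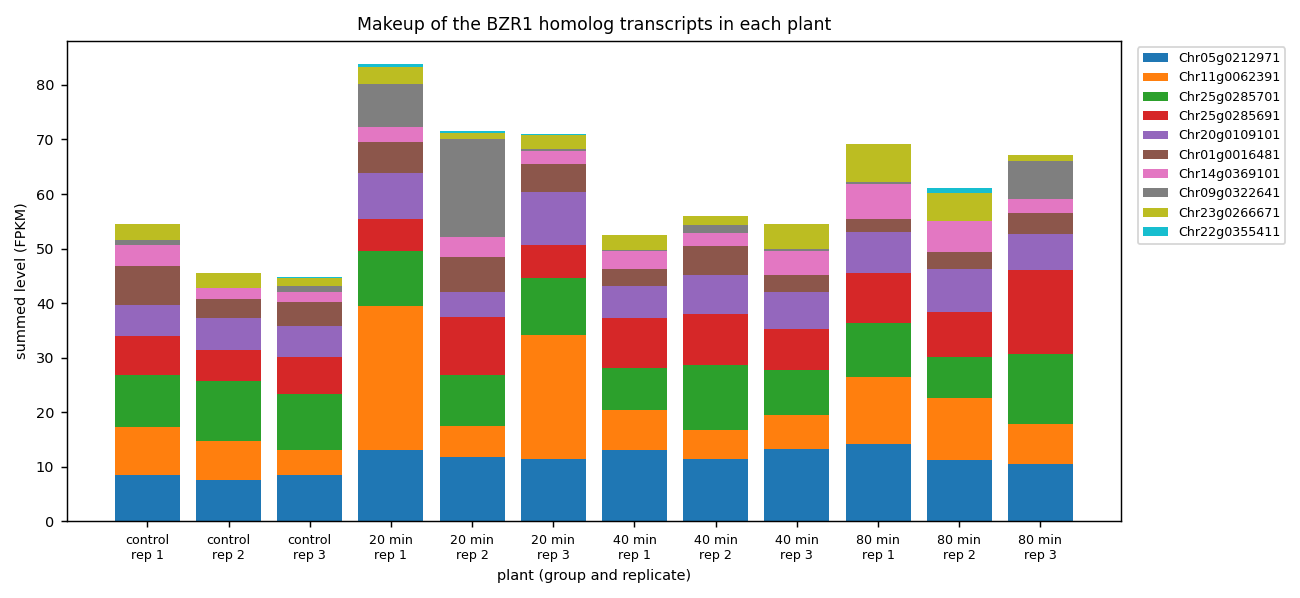
Summed FPKM of the 10 BZR1 homologs in each of the 12 plants (vertical axis from 0, horizontal axis 1 bar a plant), with each colour giving 1 gene's share. The 3 bars at 20 min are the tallest, and they differ in makeup, with a wide segment of Lalb_Chr11g0062391 in replicates 1 and 3 and of Lalb_Chr09g0322641 in replicate 2.

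Other genes of the pathway were found by words in the protein names, in 8 lists with 153 genes, of which 144 were tested. edgeR called 0 of 144 in each comparison. At an unadjusted p below 0.05 there were 16 of 144 (11.1%) at 20 min, 10 of 144 (6.94%) at 40 min and 19 of 144 (13.2%) at 80 min, shares close to the 12.6%, 5.99% and 9.91% of all genes given above. DESeq2 called 4 of 144 (2.78%) at each of the 3 times against control, against 4.44%, 2.02% and 3.11% of all genes. From 20 to 40, 40 to 80 and 20 to 80 min 25 (17.4%), 10 (6.94%) and 29 (20.1%) of 144 had an unadjusted p below 0.05, against 14.2%, 4.51% and 17.3% of all genes. DESeq2 called 9 (6.25%), 1 (0.694%) and 14 (9.72%) of 144 there, against 5.07%, 0.87% and 7.44%. A phosphatase 2A subunit gene, Lalb_Chr12g0197641, is among the DESeq2 calls at 40 and 80 min and from 20 to 40 and 20 to 80 min. Its DESeq2 log2 fold changes there were 21.18, 23.28, 31.75 and 33.84, with edgeR adjusted p of 0.763, 0.426, 0.311 and 0.211. The cause of that difference was not tested. A list for other genes named after brassinosteroids matched 0 genes beyond the members.

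Among receptors and co-receptors, 3 of 3 genes were tested, 0 had an unadjusted p below 0.05 at any time against control, and the median log2 fold change was 0.67 at 20 min. The more abundant of them, the LRR-II family kinase Lalb_Chr12g0202871, a class that includes BAK1 in Arabidopsis, stood at 5.77 ± 2.06 FPKM in the controls and 6.14 ± 6.45 at 20 min. The next, Lalb_Chr13g0296791 of the same class, stood at 3.73 ± 0.780 and 5.48 ± 2.03 FPKM. Of 10 kinases of the RLCK-XII-1 class, which holds the BSK kinases of Arabidopsis, 2 (20%) had an unadjusted p below 0.05 at 20 min, both higher. The share of all genes was 12.6% in either direction and 7.32% higher. The most abundant of that class, Lalb_Chr16g0377101, stood at 23.6, 29.6 and 32.5 FPKM in the controls and 4.31, 5.27 and 17.7 FPKM at 80 min. Its 80 min plants lay below the controls without overlap, as 9.05% of all genes did. Its log2 fold change was -1.76 ± 0.54 (SE), with an edgeR adjusted p of 0.371 and a DESeq2 adjusted p of 0.0441. The second, Lalb_Chr10g0097071, stood at 13.97 ± 0.245 FPKM in the controls and 13.5 ± 1.53 at 80 min. The only gene named as a GSK3 kinase, Lalb_Chr18g0046511, the class of BIN2, stood at 2.08 ± 1.33 FPKM in the controls and 2.58 ± 1.11 at 20 min.

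Of 27 tested genes named as protein phosphatase 2A subunits or activators, 1 (3.7%) had an unadjusted p below 0.05 at 20 min, 2 (7.41%) at 40 min and 3 (11.1%) at 80 min, against 12.6%, 5.99% and 9.91% of all genes. The most abundant of them by mean FPKM, the regulatory subunit B gene Lalb_Chr22g0351721, stood at 15.1 ± 1.29 FPKM in the controls and between 15.8 and 16.9 as a mean at the sucrose times, and the second, Lalb_Chr24g0396281, at 14.55 ± 1.49 in the controls and between 13.1 and 17.8. Of 22 genes for 14-3-3 proteins, 3 (13.6%) had an unadjusted p below 0.05 at 20 min, all lower, and 0 at 40 and 80 min. At 20 min the share of all genes was 12.6% in either direction and 5.28% lower. Lalb_Chr23g0270091, the most abundant of them, stood at 204.3, 221.6 and 278.5 FPKM in the controls and at 142.8, 131.0 and 140.8 FPKM at 20 min. The 20 min plants lay below the controls without overlap, as 10.8% of all genes did. The log2 fold change was -0.67 ± 0.19 (SE), and the adjusted p was 0.243 in edgeR and 0.00402 in DESeq2. At 40 and 80 min its mean was 229.3 and 218.0 FPKM, near the 234.8 of the controls. Lalb_Chr22g0356891, almost as abundant, stood at 206.9 ± 30.3 FPKM in the controls and 187.0 ± 7.255 at 20 min.

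Of 6 tested genes of brassinosteroid synthesis and breakdown, 1 (16.7%) had an unadjusted p below 0.05 at each time against control, beside the same shares of all genes. Lalb_Chr05g0212531, named as a 3-epi-6-deoxocathasterone 23-monooxygenase, an enzyme of hormone synthesis, stood at 46.0, 40.9 and 47.5 FPKM in the controls and 14.1, 17.4 and 35.7 FPKM at 80 min. The 80 min plants lay below the controls without overlap, as 9.05% of all genes did. The log2 fold change was -1.09 ± 0.35 (SE) with an edgeR adjusted p of 0.391 and a DESeq2 adjusted p of 0.0799. The sterol reductase gene Lalb_Chr01g0001531, which acts in sterol synthesis upstream of the hormone, stood at 11.8 ± 6.56 FPKM in the controls and 34.3 ± 27.0 at 80 min, with an edgeR adjusted p of 0.589. The words for TOPLESS, a corepressor that BZR1 recruits in Arabidopsis, matched no gene of that name and instead 5 genes named for a Jas TPL-binding domain, of which 0, 0 and 1 had an unadjusted p below 0.05 at 20, 40 and 80 min. The most abundant of these were Lalb_Chr10g0091821, at 8.08 ± 1.23 FPKM in the controls and 11.01 ± 2.77 at 20 min, and Lalb_Chr19g0137691, at 4.05 ± 0.827 and 2.07 ± 0.2535.

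Xyloglucan endotransglucosylases and expansins loosen and remodel cell walls, and some are brassinosteroid-responsive in Arabidopsis. Of 70 tested, 9 had an unadjusted p below 0.05 at 20 min (4 higher and 5 lower), 7 at 40 min (2 higher and 5 lower) and 12 at 80 min (4 higher and 8 lower). These were 12.9%, 10% and 17.1% of the list, against 12.6%, 5.99% and 9.91% of all genes. Their median log2 fold changes were -0.03, 0.21 and 0.09, against 0.06, 0.08 and 0.12 over all genes. From 20 to 40, 40 to 80 and 20 to 80 min 15 (21.4%), 8 (11.4%) and 21 (30%) had an unadjusted p below 0.05, against 14.2%, 4.51% and 17.3%. DESeq2 called 7 (10%), 0 and 11 (15.7%) there, against 5.07%, 0.87% and 7.44%, and edgeR called 0. The most abundant members went opposite ways at 80 min. Lalb_Chr14g0364171 stood at 91.6 ± 25.4 FPKM in the controls and 199.1 ± 56.6 at 80 min, while Lalb_Chr09g0325451 stood at 155.3 ± 9.54 and 43.9 ± 52.2, and edgeR called neither.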

How the data were processed

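Paired reads of polyadenylated RNA from 12 plants came from a kit that marks the strand, all in 1 lane, per the labels' protocols. The authors deposited raw read counts and FPKM for each gene and library, and their own log2 fold change, p-value and adjusted p-value for every time of exposure, per the file headers. A length column was not used. Per the submitters' processing notes, which state no role or order, DESeq2, StringTie, HISAT2, Trimmomatic 0.32, FastQC and bcl2fastq 2.20 were involved. Genome build, strand setting and the handling of reads that match several genes: not given in the sources used here. The split of reads between similar homologs, the adjacent pair above all, is uncertain for that reason, and no coordinates are given.

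The deposited counts were analysed with edgeR 4.0.16 in R 4.3.3. filterByExpr kept 28980 genes, among them 10 of 10 homologs. With TMM scaling, a robust quasi-likelihood fit by group (glmQLFit, glmQLFTest) over 12 libraries had 8 residual degrees of freedom. Benjamini-Hochberg adjustment ran over all genes tested, with calls below 0.05. SE is the size of a log2 fold change over the root of its F, and 95% intervals come from the same fit. DESeq2 1.42.0, RLE scaling, no filter, 6-library fits, a replicate block and left-out plants were alternatives. Log2 CPM for correlations used a prior count of 2. Limits from a count of 0 (3 reads) cover counting error only. The fit was tested on simulated counts with changes set at 20 min against control. It called 1 of 67 genes changed by 1 log2 unit, 7 of 67 changed by 2 and 32 of 66 changed by 3, with 2 false calls. A gene that edgeR did not call is therefore not shown to be unchanged.

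Homologs were taken by name and pathway genes by words in protein names. Named were every homolog, the 2 genes of each list with the highest mean FPKM, and the 5 genes with the highest r with Lalb_Chr05g0212971. All 33388 identifiers matched the NCBI gene order for CNRS_Lalb_1.0, used for neighbours only. The members and lists were chosen with earlier results of these data known.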

Additional observations from a re-analysis of the deposited data

How the results depend on the processing

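Of 1080 fold changes of homologs under the alternatives, 1054 lay within 1 SE of the value reported, and the sign differed in 54, of which 4 had a reported size of at least 0.5. edgeR with RLE scaling, with no filter on low counts, or with only the 6 libraries compared called 0 homologs in every comparison run. DESeq2 called 1 homolog at 20 min against control, 1 from 20 to 40 min, 1 from 20 to 80 min and 2 over the 4 groups. Leaving out 1 plant at a time gave 0 to 1 calls in those 4 comparisons and 0 in the others. The calls came without 20 min replicate 2, and all were Lalb_Chr11g0062391. Without 20 min replicate 2 and 80 min replicate 3 together, 2 homologs were called at 20 min (Lalb_Chr11g0062391, adjusted p 0.0113, and Lalb_Chr05g0212971, which that contrast chose), 1 from 20 to 40 min, 1 from 20 to 80 min and 1 over the 4 groups. These plants were singled out by their effect in these same data, so the calls without them are a description. The cause was not tested. Over all genes, in the order 20, 40 and 80 min against control, 20 to 40, 40 to 80 and 20 to 80 min, and the F test, edgeR called 7, 26, 3, 0, 0, 0 and 21, DESeq2 1287, 585, 900, 1468, 252, 2157 and 2425, edgeR without that pair 2404, 249, 1631, 3140, 669, 5227 and 4473, and edgeR with the replicate block 0, 0, 1, 0, 0, 0 and 0. With only the 6 libraries compared the first 6 counts were 3, 1, 3, 3, 1 and 0, and with no filter 7, 23, 10, 0, 0 and 0. Leaving out 1 plant gave between 0 and 3541 calls over all genes. The replicate block called 0 homologs in every comparison. The shared replicate numbers did not show a pairing: 18 correlations between same-numbered plants ran from -0.223 to 0.162, 3 of them over 0.1, and 5 of 12 libraries correlated best with their own number.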

Other observations

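A list of genes with a brassinosteroid term in the deposited gene ontology column was added after the values were seen. It held 37 genes beside the homologs, of which 32 were tested. It shares 16 genes with the other lists, 10 with the RLCK-XII-1 kinases and 6 with hormone synthesis and breakdown. edgeR called 0 of 32 in each comparison, and 5 (15.6%), 2 (6.25%) and 5 (15.6%) of them had an unadjusted p below 0.05 at 20, 40 and 80 min against control, beside 12.6%, 5.99% and 9.91% of all genes. DESeq2 called 1 (3.12%), 0 and 2 (6.25%), beside 4.44%, 2.02% and 3.11%.

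The gene that DESeq2 called at 20 min was Lalb_Chr16g0377201, a putative cytochrome P450 with the term brassinosteroid biosynthetic process, named here after its values were seen. Its levels were 16.1, 15.2 and 34.9 CPM in the controls, 2.71, 5.36 and 4.21 CPM at 20 min, 20.6, 14.6 and 28.7 CPM at 40 min and 34.7, 58.1 and 11.1 CPM at 80 min. The 20 min plants lay below every library of the other groups. Of all genes, 10.8% lay below the controls without overlap at 20 min, and the share below all other groups was not counted. The log2 fold change at 20 min against control was -2.43 ± 0.59 (SE), with an adjusted p of 0.203 in edgeR and 0.00226 in DESeq2. From 20 to 80 min it was 3.08 ± 0.61, with an adjusted p of 0.130 in edgeR and 3.12e-05 in DESeq2. Replicate 2 at 20 min, which stood apart in alcohol dehydrogenase 1, also lay below every library of the other groups in this gene.

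The genes most like Lalb_Chr11g0062391 over the 12 libraries, looked up after its values were seen, were led by a putative SKI-interacting protein (Lalb_Chr14g0364221, Pearson's r = 0.98) and a C3H family factor (Lalb_Chr13g0303741, r = 0.97), and 134 of 18004 genes reached r = 0.9. For Lalb_Chr09g0322641 the closest was an exocyst complex component (Lalb_Chr01g0010381, r = 0.89), and 0 genes reached r = 0.9.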
